A study of Homo sapiens with 6 samples.

Results

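Cytosolic ribosomal protein genes were described in 3 human lung cancer cell lines. The members were the genes whose symbol is RPL or RPS with a number and at most 1 of the letters A, X, Y or L, together with RPLP0, RPLP1, RPLP2, RPSA and RPL36AL. Symbols of pseudogenes, the RPS6K kinases and RPS4Y were not taken, but the rows listed as RPL21 include a locus that GENCODE annotates as a pseudogene, described below. Of 26485 gene symbols, 82 fitted these names and 81 had a mean of at least 1 TPM over the 6 libraries. These 81 were the members, 49 of the large subunit (RPL and RPLP) and 32 of the small subunit (RPS and RPSA), and all 81 could be tested. RPL3L, a striated muscle paralog of RPL3 on chromosome 16, was listed at 0 in every library and was left out. The lowest member kept was RPL10L, with a mean of 1.02 TPM. Each of the 81 had a locus that overlapped the protein-coding gene of the same name in GENCODE release 29. Where a symbol had several loci, such a locus was taken as its position, as for RPL21.

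The 3 lines were PC9-AMG, PC9-BrM4 and PC9, with 2 libraries of each, all grown in conventional culture with no treatment in the labels. PC9 came from a lung adenocarcinoma and depends on an activated EGFR, and BrM4 cells were selected from it in earlier brain metastasis work. PC9-AMG and PC9-BrM4 are called sublines below, after their names. The sources used here give neither the meaning of AMG nor whether a subline is a single clone. The tables that the sample records assign to PC9-AMG are named EMG instead, and these sources do not say whether the names mean the same line. TPM is a level per transcript length, scaled so that each library adds up to the same total. A member can therefore fall in TPM because other transcripts rose, and in bulk RNA fewer expressing cells and less RNA per cell cannot be told apart.

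The ribosome joins a small 40S subunit, which reads the mRNA, to a large 60S subunit, which makes the peptide bond. Nearly every ribosomal protein is present in a single copy per ribosome, and proteins made in excess are degraded. The mRNAs of these proteins are the classic TOP mRNAs: they begin with a C followed by a run of pyrimidines, the 5′ terminal oligopyrimidine tract. Through this tract the kinase mTOR and the RNA-binding protein LARP1 set how much of the mRNA is translated. Genes of ribosome production are among the best known targets of MYC.

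RefSeq (GRCh38.p14) held a start for 65 of the 81 members, and the bases around these starts are shown because the tract is the feature that defines this class of mRNA. A start was counted as a TOP start where the first transcribed base was C and at least 4 bases of C or T followed it. Each line below holds 30 bases, 15 before and 15 from the first transcribed base on, read 5′ to 3′ on the gene's strand. Capitals mark the pyrimidine run of a TOP start.
RPL39 (chrX:119791616-119791645, minus strand): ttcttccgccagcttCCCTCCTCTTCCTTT
RPLP1 (chr15:69452803-69452832, plus strand): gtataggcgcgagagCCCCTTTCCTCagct
RPS6 (chr9:19380222-19380251, minus strand): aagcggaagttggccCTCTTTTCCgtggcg
RPL38 (chr17:74203663-74203692, plus strand): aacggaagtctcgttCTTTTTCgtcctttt
RPL36 (chr19:5690280-5690309, plus strand): ccgcgcggcgccagcCCTTCCgccacggcc
RPL41 (chr12:56116618-56116647, plus strand): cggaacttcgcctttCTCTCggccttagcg
RPL21 (chr13:27251543-27251572, plus strand): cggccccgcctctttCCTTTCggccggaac
RPS26 (chr12:56041903-56041932, plus strand): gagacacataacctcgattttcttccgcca
RPL36AL (chr14:49620612-49620641, minus strand): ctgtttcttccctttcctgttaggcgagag
RPL3 (chr22:39319609-39319638, minus strand): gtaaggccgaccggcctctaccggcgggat

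A TOP start was found for 46 of the 65 matched members (70.8%), counted by symbol, and not for 19. Counted by window, it was present in 57.5% of 80 member windows and in 4.07% of all 35116 windows of the table. The run had a median of 8 bases and ranged from 5 in RPL41 to 19 in RPL39, whose run goes on past the printed window. The annotated starts of RPS26 and RPS27L began with G, and those of RPL36AL and RPL3 began with a C and too few pyrimidines for the rule. These letters describe the annotated start only, and draw no line between mRNAs that are and are not under TOP control. In the 300 bases from 250 before the start to 50 after it, searched on both strands with overlaps between motifs allowed, CCGGAAG was present in 33.8% of member windows and in 10.3% of all windows. GGGCGG was present in 56.2% and 45.0%, AAGATGGC in 7.50% and 2.89%, TATAAA in 7.50% and 11.5%, and CACGTG in 5.0% and 7.26%. The median level was 1392 TPM for members with a TOP start, 722 TPM for those without and 1752 TPM for the 16 members with no entry in the table.

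The ribosomal protein genes were among the most abundant messages of these cells. Their median level was 1381 TPM, with quartiles of 712 and 2059 TPM, and 55 members averaged at least 1000 TPM. RPL8, a part of the peptidyl transferase region of the 60S subunit, was the highest at 3308 TPM and ranked 8 among all symbols. Of the 100 most abundant symbols, 48 were members. The next levels were those of RPS18, RPL39, RPLP1 and RPS24, and each had a library above a library of its neighbour in this order. Only 3 members averaged under 100 TPM, and they were RPS26, RPS27L and RPL10L.

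**Figure D1:**
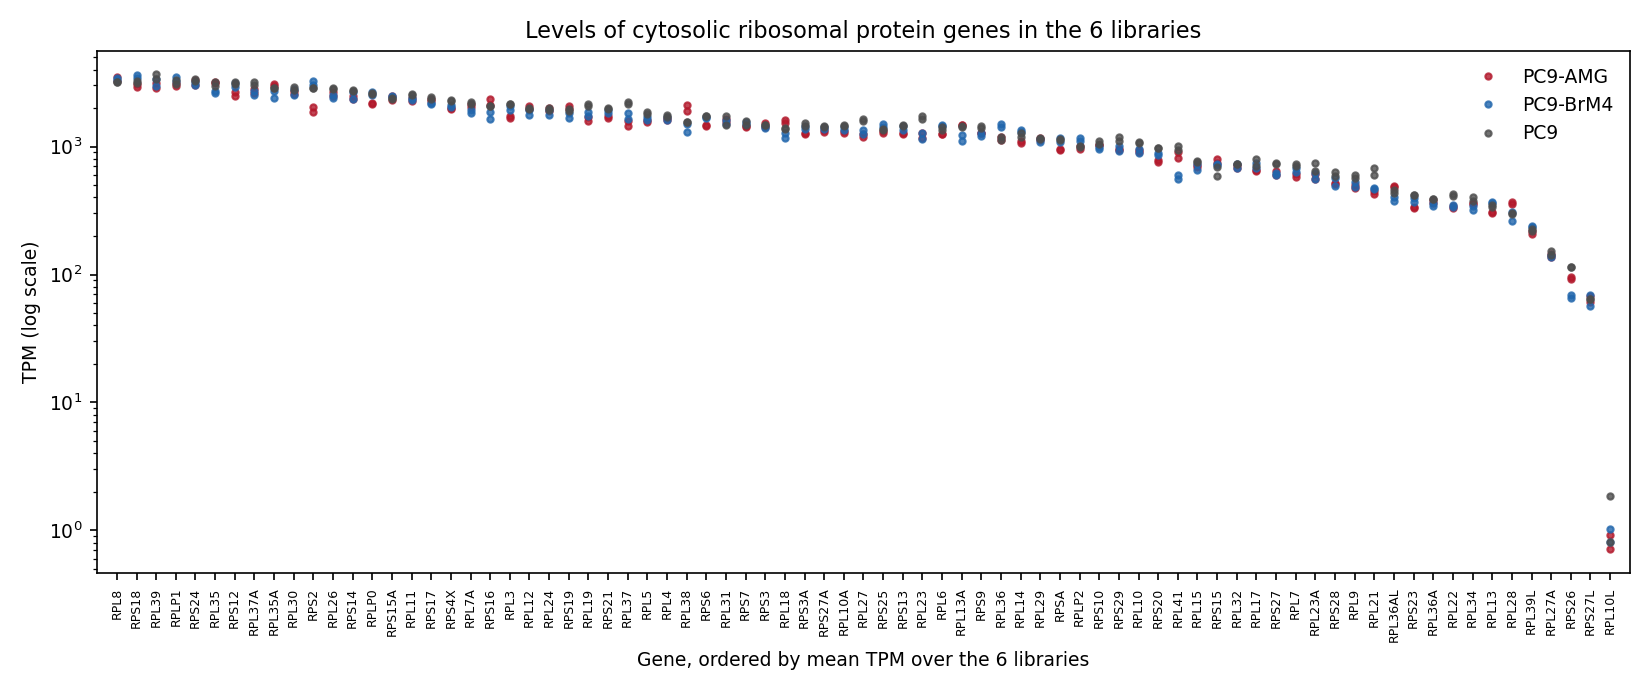
TPM (log axis) of the members reported here in the 6 libraries, with genes ordered from the highest to the lowest mean and points coloured by line. The curve falls slowly from RPL8 at 3308 TPM past the median of 1381 TPM and then drops at RPL27A, RPS26, RPS27L and RPL10L, the last near 1 TPM.

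The low members differ in kind. RPS26, a core protein of the 40S subunit at the mRNA exit channel, had 95.1 and 91.4 TPM in PC9-AMG, 65.6 and 69.8 TPM in PC9-BrM4, and 115 and 115 TPM in PC9. RPS27L is a paralog of RPS27 that p53 can induce, and it had 60.8 and 68.4 TPM in PC9-AMG, 69.7 and 56.4 TPM in PC9-BrM4, and 64.3 and 64.5 TPM in PC9. RPL10L is a paralog of RPL10 known from the male germ line, and its highest value was 1.85 TPM in PC9 replicate 2. Next above them came RPL27A, a 60S protein, with 137 and 143 TPM in PC9-AMG, 141 and 136 TPM in PC9-BrM4, and 152 and 142 TPM in PC9. RPL39L, a paralog of RPL39 known from the male germ line and from some cancers, had 207 and 218 TPM in PC9-AMG, 236 and 238 TPM in PC9-BrM4, and 218 and 228 TPM in PC9. The order of the levels was nearly the same in every line: Spearman's rho over the 81 members was 0.964 between PC9-AMG and PC9-BrM4, 0.972 between PC9-AMG and PC9, and 0.982 between PC9-BrM4 and PC9. Those values describe genes that share libraries and transcript lengths, and genes are not independent replicates.

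The members together took a smaller share of all TPM in the sublines than in PC9. They summed to 114725 and 120475 TPM in PC9-AMG, 122088 and 114582 TPM in PC9-BrM4, and 126591 and 127107 TPM in PC9. That is 11.8% ± 0.41 of all TPM in PC9-AMG, 11.8% ± 0.53 in PC9-BrM4 and 12.7% ± 0.04 in PC9 (SD, n = 2 each). All 4 subline libraries lay below both PC9 libraries, while the PC9-AMG and PC9-BrM4 libraries overlapped. No test was made on the sum, because the members were chosen with results known. Large-subunit members summed to 1.34 times the small-subunit members in PC9-AMG (SD 0.0066), 1.32 times in PC9-BrM4 (SD 0.0028) and 1.36 times in PC9 (SD 0.0057).

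**Figure D2:**
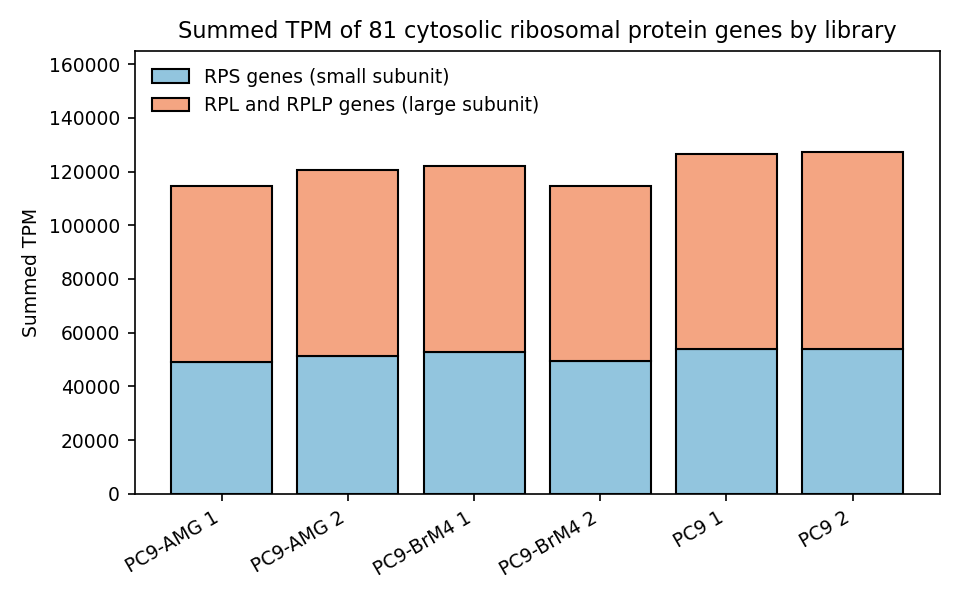
Summed TPM of the 81 members in each library, split into small-subunit genes (lower bars) and large-subunit genes (upper bars). The PC9-AMG and PC9-BrM4 libraries reach 114582 to 122088 TPM and the PC9 libraries 126591 and 127107 TPM.

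The members also moved together between the replicates of a subline. In PC9-AMG, 74 of the 81 were higher in replicate 2 than in replicate 1, with a median difference of 0.07 on the log2 scale. In PC9-BrM4, 74 of the 81 were lower in replicate 2, with a median of -0.09. In PC9 the median difference was 0.01. The 1935 other tested genes that averaged 100 TPM or more had medians of 0.0018 in PC9-AMG, -0.0026 in PC9-BrM4 and 0.0026 in PC9. Over all 14195 tested genes the median went the other way from the members. It was -0.03 in PC9-AMG, with 5546 genes higher and 8631 lower in replicate 2. In PC9-BrM4 it was 0.04, with 9000 higher and 5166 lower, and in PC9 it was -0.01, with 6346 higher and 7813 lower. Between lines, the medians of the members were -0.13 in PC9-AMG against PC9 and -0.11 in PC9-BrM4 against PC9, and the part of the shift between replicates in them was not tested.

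Depth differed moderately between libraries, and markers of other cell types were low. The deposited coverage and FPKM give an estimated 2.66 to 4.39 aligned gigabases per library, with 13455 to 13764 symbols at 1 TPM or more. All 6 epithelial markers were at 1 TPM or more in the mean, and they summed to 13966 to 14460 TPM in PC9-AMG, 9415 to 9542 TPM in PC9-BrM4 and 12161 to 12246 TPM in PC9. None of 5 lung lineage markers, the surfactant genes and NKX2-1 among them, reached 1 TPM in the mean, and SFTPC and SCGB1A1 were listed at 0 in every library. Of the markers of other cells, 1 of 4 for leukocytes, 1 of 4 for fibroblasts, 2 of 3 for endothelium, 1 of 3 for astrocytes and 1 of 3 for oligodendrocytes reached 1 TPM. Each of these lists summed to at most 49.4 TPM in any library. The fibroblast list, nearly all of it COL1A1, summed to 14.6 to 15.01 TPM in PC9-AMG, 3.68 to 4.45 TPM in PC9-BrM4 and 4.78 to 5.05 TPM in PC9.

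Fold changes below are differences of means of log2(TPM + 1), given with their standard error. The test was limma with Benjamini-Hochberg adjustment over all 14195 tested genes, and a gene was called where the adjusted p was below 0.05. Nothing in the labels shows that the 2 libraries of a line came from separate cultures. The p-values therefore measure only the spread between libraries, which may be technical.

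In PC9-AMG, ribosomal protein genes fell far more often than they rose relative to PC9. Of the 81 members, 41 were called lower (50.6%) and 7 higher (8.64%), beside 27.7% lower and 27.8% higher over all tested genes. Among the 1935 other genes at 100 TPM or more, 32.7% were lower and 33.4% higher. The changes were small: the median over members was -0.13 and the range -0.65 to 0.37, while the median of the abundant other genes was -0.0012. Only 4 members were higher and 19 lower by at least 1.2-fold, which is 28.4% of members, beside 49.0% of all tested genes. The PC9-AMG and PC9 libraries did not overlap in 80.2% of members, beside 79.8% of all tested genes. The large subunit had 4 members higher and 24 lower of 49, and the small subunit 3 higher and 17 lower of 32. With quantile normalization of the libraries, which gives every library the same distribution of values, the calls were 14 higher and 30 lower. Of higher calls there were 3 without PC9-AMG replicate 2 and 4 when PC9 replicate 2 was left out.

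In PC9-BrM4, lower calls of ribosomal protein genes also outnumbered higher ones relative to PC9. Of the 81, 32 were called lower (39.5%) and 3 higher (3.70%), beside 23.1% lower and 23.4% higher over all tested genes. Of the abundant other genes, 24.9% were lower and 35.7% higher. The members' median was -0.11, with a range of -0.76 to 0.34, beside a median of 0.04 for the abundant other genes. The members' median was -0.06 without PC9-BrM4 replicate 2 and also -0.06 with quantile normalization. At 1.2-fold or more, 1 member was higher and 11 were lower, or 14.8% of members beside 40.6% of all tested genes. No overlap between the libraries was seen for 80.2% of members, beside 75.2% of all tested genes. The large subunit had 2 higher and 20 lower, and the small subunit 1 higher and 12 lower. This count moved with single libraries: leaving out PC9-BrM4 replicate 2 left 18 lower calls, leaving out PC9 replicate 2 also left 18, and leaving out PC9-BrM4 replicate 1 gave 39. Quantile normalization gave 12 higher and 22 lower. Both sublines were set against the same 2 PC9 libraries, so the counts of the 2 comparisons are not independent.

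Between the 2 sublines the members went both ways. Relative to PC9-BrM4, 15 of 81 were higher in PC9-AMG (18.5%) and 22 lower (27.2%), beside 28.1% higher and 28.0% lower over all tested genes. Of the abundant other genes, 29.6% were higher and 37.3% lower. The members' median was -0.02, and it was 0.01 without PC9-AMG replicate 1 and 0.03 without PC9-BrM4 replicate 1. By at least 1.2-fold, 10 members were higher and 6 lower in PC9-AMG, or 19.8% of members beside 49.3% of all tested genes. The 22 lower calls became 14 without PC9-AMG replicate 1. The PC9-AMG and PC9-BrM4 libraries stood apart for 65.4% of members, beside 77.5% of all tested genes.

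The 3 proteins of the P stalk recruit elongation factors to the 60S subunit. In PC9-AMG against PC9, 1 was lower, beside 27.7% of all tested genes, and in PC9-BrM4 against PC9, 1 was higher, beside 23.4%. In PC9-AMG against PC9-BrM4, 2 were lower, beside 28.0%, and 3 genes are too few to set apart from these shares. RPLP0, the base of the stalk, had 2135 and 2185 TPM in PC9-AMG, 2676 and 2537 TPM in PC9-BrM4, and 2593 and 2624 TPM in PC9. Its PC9-AMG libraries lay below the other 4, with a log2 fold change of -0.27 ± 0.04 (adjusted p = 0.00128) against PC9 and -0.27 ± 0.04 (adjusted p = 0.00120) against PC9-BrM4. With quantile normalization the call of RPLP0 against PC9 was lost (-0.10, adjusted p = 0.0504). RPLP1 had 2987 and 3158 TPM in PC9-AMG, 3489 and 3272 TPM in PC9-BrM4, and 3107 and 3290.5 TPM in PC9, and passed in no comparison as tested. RPLP2 had 1012 and 961 TPM in PC9-AMG, 1101 and 1176 TPM in PC9-BrM4, and 985 and 1009 TPM in PC9, with both PC9-BrM4 libraries above the rest. RPLP2 was higher in PC9-BrM4 than in PC9 by 0.19 ± 0.05 (adjusted p = 0.0136), and lower in PC9-AMG than in PC9-BrM4, at -0.21 ± 0.05 (adjusted p = 0.00758). The first of these was 0.14 (adjusted p = 0.0683) without PC9-BrM4 replicate 2 and 0.17 (adjusted p = 0.0807) without PC9 replicate 1, and the second was -0.17 (adjusted p = 0.0536) without PC9-AMG replicate 2.

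RPL5 and RPL11 bind the 5S rRNA, and the free complex holds MDM2 in check, which stabilises p53. RPL5 had 1544 and 1602 TPM in PC9-AMG, 1707 and 1614 TPM in PC9-BrM4, and 1855 and 1786 TPM in PC9, with every subline library below both PC9 libraries. RPL5 was lower in PC9-AMG than in PC9, at -0.21 ± 0.05 (adjusted p = 0.00599). The lower call in PC9-BrM4, -0.13 ± 0.05 (adjusted p = 0.0459), was -0.09 (adjusted p = 0.195) without PC9-BrM4 replicate 2, -0.11 (adjusted p = 0.236) without PC9 replicate 1 and -0.16 (adjusted p = 0.0856) without PC9 replicate 2. RPL11 had 2253 and 2379 TPM in PC9-AMG, 2410.2 and 2331 TPM in PC9-BrM4, and 2511 and 2558 TPM in PC9. Its call in PC9-AMG against PC9, -0.13 ± 0.04 (adjusted p = 0.0364), was -0.09 (adjusted p = 0.199) without PC9-AMG replicate 1, -0.14 (adjusted p = 0.101) without PC9 replicate 1 and -0.12 (adjusted p = 0.164) without PC9 replicate 2.

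Several large-subunit genes were lower in both sublines than in PC9. RPL23, a 60S protein that also binds MDM2, had 1164 and 1267 TPM in PC9-AMG, 1270.3 and 1142 TPM in PC9-BrM4, and 1718 and 1632 TPM in PC9. The subline libraries overlapped each other and stayed well below PC9, at -0.46 ± 0.06 (adjusted p = 0.000763) in PC9-AMG and -0.48 ± 0.06 (adjusted p = 0.000871) in PC9-BrM4. RPL10, which sits near the peptidyl transferase centre and is put in late in 60S maturation, had 903 and 933 TPM in PC9-AMG, 955 and 885 TPM in PC9-BrM4, and 1087 and 1066 TPM in PC9. RPL10 was lower, at -0.23 ± 0.05 (adjusted p = 0.00450) in PC9-AMG and -0.23 ± 0.05 (adjusted p = 0.00607) in PC9-BrM4. RPL22, an RNA-binding 60S protein that is not essential for the ribosome, had 331 and 345 TPM in PC9-AMG, 352 and 335 TPM in PC9-BrM4, and 427 and 409 TPM in PC9. Its differences were -0.30 ± 0.05 (adjusted p = 0.00113) in PC9-AMG and -0.28 ± 0.05 (adjusted p = 0.00207) in PC9-BrM4. RPL37, a zinc-binding 60S protein, had 1458 and 1595 TPM in PC9-AMG, 1839 and 1651 TPM in PC9-BrM4, and 2144 and 2226 TPM in PC9, so the subline libraries lay below PC9 without overlap. It was lower, at -0.52 ± 0.06 (adjusted p = 0.000454) in PC9-AMG and -0.33 ± 0.06 (adjusted p = 0.00502) in PC9-BrM4. Between the sublines RPL37 passed at -0.19 ± 0.06 (adjusted p = 0.0365), which was -0.13 (adjusted p = 0.212) without PC9-AMG replicate 1 and -0.11 (adjusted p = 0.189) without PC9-BrM4 replicate 1.

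RPL41, the shortest human ribosomal protein, and RPS26 were the members that fell most in PC9-BrM4. RPL41 had 815 and 908 TPM in PC9-AMG, 598 and 558 TPM in PC9-BrM4, and 937 and 1017 TPM in PC9. Both PC9-BrM4 libraries lay far below the others, at -0.76 ± 0.07 (adjusted p = 0.000126) against PC9, and PC9-AMG was higher than PC9-BrM4 by 0.57 ± 0.07 (adjusted p = 0.000277). PC9-AMG was also lower than PC9 at -0.18 ± 0.07 (adjusted p = 0.0491), a call that was lost in 11 of 15 alternatives, among them -0.10 (adjusted p = 0.266) without PC9-AMG replicate 1 and -0.12 (adjusted p = 0.243) without PC9 replicate 2. For RPS26, whose values are given above, the 3 lines did not overlap. RPS26 was lower in PC9-AMG than in PC9, at -0.30 ± 0.05 (adjusted p = 0.00152), lower in PC9-BrM4 than in PC9, at -0.76 ± 0.05 (adjusted p = 3.24e-05), and higher in PC9-AMG than in PC9-BrM4 by 0.46 ± 0.05 (adjusted p = 0.000185). The 2 genes lie within 5 Mb of each other on chromosome 12.

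RPS2 was among the members that fell most in PC9-AMG. RPS2, a protein of the mRNA entry channel of the 40S subunit, had 1871 and 2033 TPM in PC9-AMG, 3240.5 and 3023 TPM in PC9-BrM4, and 2853 and 2856 TPM in PC9. PC9-AMG lay below both other lines, at -0.55 ± 0.05 (adjusted p = 0.000154) against PC9 and -0.68 ± 0.05 (adjusted p = 4.41e-05) against PC9-BrM4. Smaller differences of this kind were seen for RPL3, a core of the peptidyl transferase region, which had 1661 and 1728 TPM in PC9-AMG, 2066 and 1941 TPM in PC9-BrM4, and 2131 and 2162 TPM in PC9. RPL3 was lower in PC9-AMG, at -0.34 ± 0.05 (adjusted p = 0.000600) against PC9 and -0.24 ± 0.05 (adjusted p = 0.00291) against PC9-BrM4. RPL14, another 60S protein, had 1066 and 1114 TPM in PC9-AMG, 1352 and 1303 TPM in PC9-BrM4, and 1279 and 1189 TPM in PC9. Against PC9-BrM4 it was lower, at -0.28 ± 0.05 (adjusted p = 0.00198), and against PC9, at -0.18 ± 0.05 (adjusted p = 0.0170), which was -0.15 (adjusted p = 0.0992) without PC9-AMG replicate 1 and -0.13 (adjusted p = 0.131) without PC9 replicate 1.

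RPS6, the 40S protein that S6 kinase phosphorylates below mTOR, had 1452 and 1469 TPM in PC9-AMG, 1716 and 1662 TPM in PC9-BrM4, and 1727 and 1732 TPM in PC9. RPS6 was lower in PC9-AMG than in PC9, at -0.24 ± 0.04 (adjusted p = 0.00122), and than in PC9-BrM4, at -0.21 ± 0.04 (adjusted p = 0.00236). RPSA, a 40S protein also known as the laminin receptor precursor, had 944 and 958 TPM in PC9-AMG, 1168 and 1083 TPM in PC9-BrM4, and 1131 and 1152 TPM in PC9. It too was lower in PC9-AMG, at -0.26 ± 0.05 (adjusted p = 0.00214) against PC9 and -0.24 ± 0.05 (adjusted p = 0.00301) against PC9-BrM4. RPS27, a 40S protein with a zinc finger and a TOP start, had 644 and 598 TPM in PC9-AMG, 623 and 596 TPM in PC9-BrM4, and 750.4 and 731 TPM in PC9. The subline libraries overlapped each other below PC9, at -0.25 ± 0.05 (adjusted p = 0.00314) in PC9-AMG and -0.28 ± 0.05 (adjusted p = 0.00257) in PC9-BrM4. RPS4X, encoded on the X chromosome, had 1975 and 2012 TPM in PC9-AMG, 2099 and 2048 TPM in PC9-BrM4, and 2297 and 2249 TPM in PC9. RPS4X was lower in PC9-AMG, at -0.19 ± 0.04 (adjusted p = 0.00441), which was lost with quantile normalization (-0.07, adjusted p = 0.104), and in PC9-BrM4, at -0.13 ± 0.04 (adjusted p = 0.0249), which was -0.11 (adjusted p = 0.0943) without PC9-BrM4 replicate 2, -0.12 (adjusted p = 0.154) without PC9 replicate 1 and -0.15 (adjusted p = 0.0827) without PC9 replicate 2.

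A small group rose in PC9-AMG. RPL38, known from mouse work on the translation of Hox mRNAs, had 1897 and 2127 TPM in PC9-AMG, 1493 and 1302 TPM in PC9-BrM4, and 1563 and 1545 TPM in PC9. Its PC9-AMG libraries lay above the other 4, by 0.37 ± 0.08 (adjusted p = 0.00445) against PC9 and 0.53 ± 0.08 (adjusted p = 0.000763) against PC9-BrM4. RPL28, a 60S protein, had 357 and 369.6 TPM in PC9-AMG, 307 and 260.5 TPM in PC9-BrM4, and 299 and 300.2 TPM in PC9. It was higher in PC9-AMG by 0.28 ± 0.07 (adjusted p = 0.0132) against PC9, which was 0.25 (adjusted p = 0.0745) without PC9-AMG replicate 2, and by 0.36 ± 0.07 (adjusted p = 0.00392) against PC9-BrM4. RPS15, a 40S protein near the decoding centre, had 744 and 794 TPM in PC9-AMG, 721 and 732 TPM in PC9-BrM4, and 691 and 588 TPM in PC9. The rise of RPS15 against PC9, 0.27 ± 0.07 (adjusted p = 0.0166), was 0.22 (adjusted p = 0.102) without PC9-AMG replicate 2 and 0.15 (adjusted p = 0.0824) without PC9 replicate 2.

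RPL36, a 60S protein, was the member that rose most in PC9-BrM4. It had 1131 and 1194 TPM in PC9-AMG, 1491 and 1417 TPM in PC9-BrM4, and 1116 and 1179.5 TPM in PC9, so PC9-AMG and PC9 overlapped and both PC9-BrM4 libraries stood above them. The difference was 0.34 ± 0.05 (adjusted p = 0.00115) for PC9-BrM4 against PC9 and -0.32 ± 0.05 (adjusted p = 0.00104) for PC9-AMG against PC9-BrM4. RPS18, a protein of the 40S head and the second most abundant member, had 2905 and 3098 TPM in PC9-AMG, 3628 and 3463 TPM in PC9-BrM4, and 3246 and 3154 TPM in PC9. Its rise in PC9-BrM4 against PC9, 0.15 ± 0.05 (adjusted p = 0.0387), was 0.11 (adjusted p = 0.155) without PC9-BrM4 replicate 1, 0.17 (adjusted p = 0.0899) without PC9 replicate 1 and 0.13 (adjusted p = 0.177) without PC9 replicate 2. PC9-AMG was lower than PC9-BrM4, at -0.24 ± 0.05 (adjusted p = 0.00401).

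**Figure D3:**
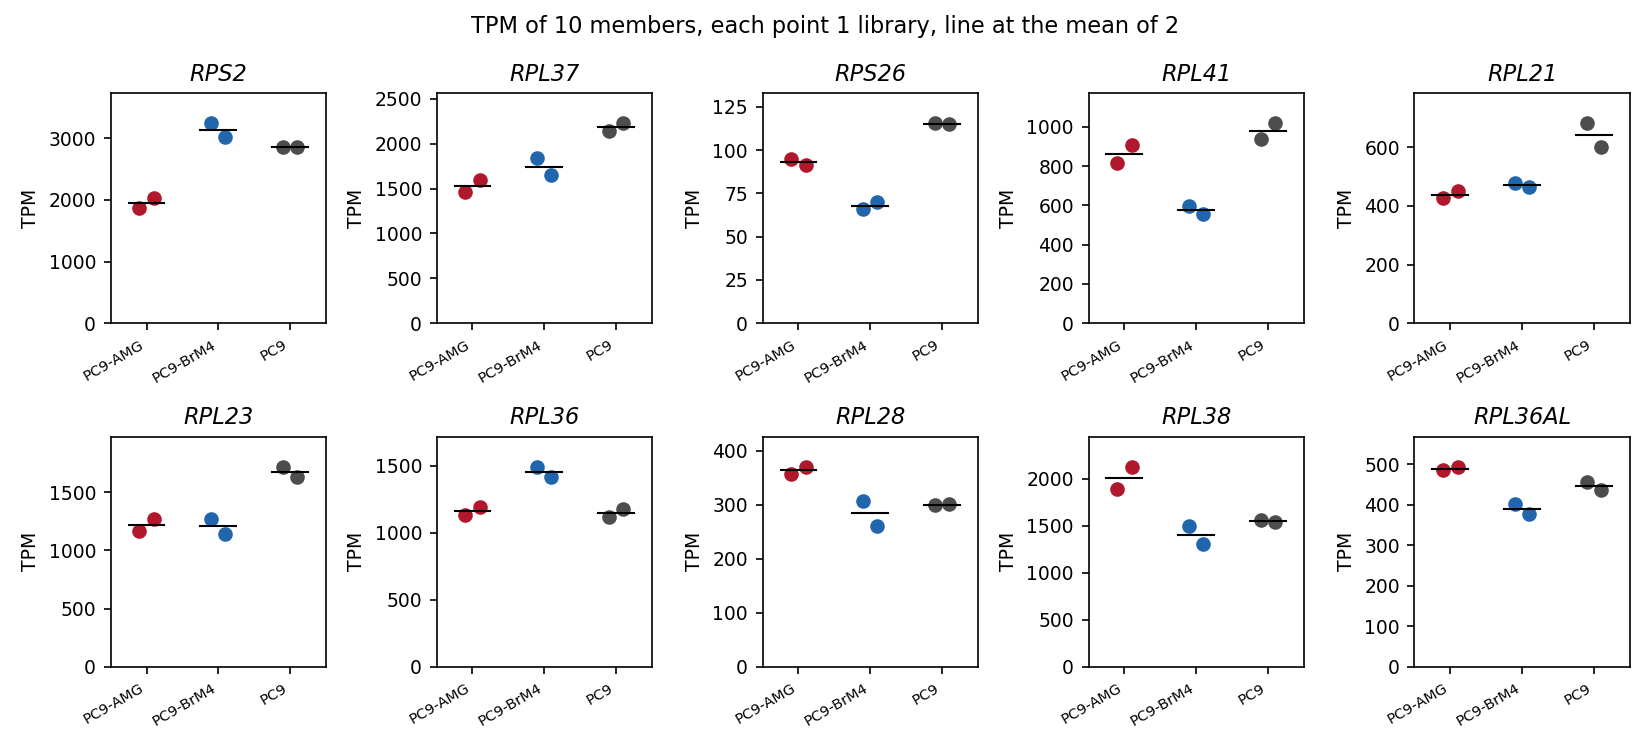
TPM of 10 members by line, with each point a library and the black line the mean of the 2 libraries of a line. PC9-AMG is lowest for RPS2 and RPL37 and highest for RPL28, RPL38 and RPL36AL, PC9-BrM4 is lowest for RPS26 and RPL41 and highest for RPL36, and PC9 is highest for RPL21 and RPL23.

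Among the proteins mutated in Diamond-Blackfan anaemia, RPS19, on the head of the 40S subunit, had 1967 and 2057 TPM in PC9-AMG, 1821 and 1662 TPM in PC9-BrM4, and 1883 and 1949 TPM in PC9. RPS19 was higher in PC9-AMG than in PC9-BrM4 by 0.21 ± 0.05 (adjusted p = 0.0122), which was 0.18 (adjusted p = 0.0799) without PC9-AMG replicate 2 and 0.14 (adjusted p = 0.0588) without PC9-BrM4 replicate 2. RPS14, whose loss on the long arm of chromosome 5 is known from a form of myelodysplastic syndrome, had 2344 and 2487 TPM in PC9-AMG, 2685 and 2366 TPM in PC9-BrM4, and 2745 and 2709.7 TPM in PC9. Its lower call in PC9-AMG against PC9, -0.18 ± 0.06 (adjusted p = 0.0468), was lost without any 1 of the 4 libraries (-0.22 to -0.13, adjusted p from 0.0718 to 0.223). RPS27A, made as a fusion with ubiquitin, had 1311 and 1340.2 TPM in PC9-AMG, 1423 and 1365 TPM in PC9-BrM4, and 1439.7 and 1425 TPM in PC9. The call of RPS27A in PC9-AMG against PC9, -0.11 ± 0.04 (adjusted p = 0.0440), was lost in the same way (-0.13 to -0.10, adjusted p from 0.0864 to 0.188). RPL10A, a 60S protein of the L1 stalk, had 1279.7 and 1324 TPM in PC9-AMG, 1416 and 1356 TPM in PC9-BrM4, and 1441 and 1472 TPM in PC9. In PC9-AMG it was lower than in PC9, at -0.16 ± 0.04 (adjusted p = 0.0124), which was -0.14 (adjusted p = 0.0745) without PC9-AMG replicate 1 and -0.15 (adjusted p = 0.0830) without PC9 replicate 2. RPS24, a 40S protein, had 3029.6 and 3310.1 TPM in PC9-AMG, 3179 and 2999.8 TPM in PC9-BrM4, and 3386 and 3256 TPM in PC9, and RPL8 had 3260.1 and 3500.1 TPM in PC9-AMG, 3339 and 3409 TPM in PC9-BrM4, and 3167 and 3175 TPM in PC9. Neither RPS24 nor RPL8 passed in any comparison as tested.

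Paralogs were compared with the genes whose names they extend. RPL36AL, a copy of RPL36A on chromosome 14, had 486 and 494 TPM in PC9-AMG, 401 and 378 TPM in PC9-BrM4, and 455 and 437 TPM in PC9, and RPL36A, on the X chromosome, had 362 and 379 TPM in PC9-AMG, 365 and 340.0 TPM in PC9-BrM4, and 392 and 386 TPM in PC9. The paralog thus stood above its partner in every library, at 132% ± 2.64 of it in PC9-AMG, 111% ± 0.94 in PC9-BrM4 and 115% ± 2.15 in PC9 (SD, n = 2 each). RPL36AL was higher in PC9-AMG than in PC9-BrM4 by 0.33 ± 0.04 (adjusted p = 0.000595), and this was the only rise of a member called under all 15 alternatives in any comparison. It was lower in PC9-BrM4 than in PC9, at -0.19 ± 0.04 (adjusted p = 0.00976), which was -0.16 (adjusted p = 0.0781) without PC9 replicate 1. The rise in PC9-AMG against PC9, 0.13 ± 0.04 (adjusted p = 0.0352), was lost without any 1 of the 4 libraries (0.10 to 0.16, adjusted p from 0.0666 to 0.205). RPL36A passed only in PC9-BrM4 against PC9, at -0.14 ± 0.05 (adjusted p = 0.0428), which was -0.09 (adjusted p = 0.187) without PC9-BrM4 replicate 2, -0.13 (adjusted p = 0.177) without PC9 replicate 1 and -0.15 (adjusted p = 0.122) without PC9 replicate 2.

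RPL39, at the peptide exit tunnel, had 2883 and 3112 TPM in PC9-AMG, 3351 and 2971 TPM in PC9-BrM4, and 3657 and 3356 TPM in PC9. It was lower in PC9-AMG than in PC9, at -0.23 ± 0.07 (adjusted p = 0.0301), which was -0.17 (adjusted p = 0.171) without PC9-AMG replicate 1 and -0.16 (adjusted p = 0.159) without PC9 replicate 1. RPL39L stood at 7.10% ± 0.12 of RPL39 in PC9-AMG, 7.53% ± 0.67 in PC9-BrM4 and 6.38% ± 0.57 in PC9. RPL39L was lower in PC9-AMG than in PC9-BrM4, at -0.16 ± 0.04 (adjusted p = 0.0183), which was -0.12 (adjusted p = 0.0934) without PC9-AMG replicate 1 and -0.15 (adjusted p = 0.0575) without PC9-BrM4 replicate 2. RPS27L stood at 10.4% ± 1.40 of RPS27 in PC9-AMG, 10.3% ± 1.23 in PC9-BrM4 and 8.69% ± 0.19 in PC9, and passed in no comparison. Outside the name rule, RPL22L1, a paralog of RPL22, had 39.4 and 38.0 TPM in PC9-AMG, 51.9 and 51.6 TPM in PC9-BrM4, and 40.4 and 43.8 TPM in PC9. It was higher in PC9-BrM4 than in PC9 by 0.29 ± 0.06 (adjusted p = 0.00489) and lower in PC9-AMG than in PC9-BrM4, at -0.41 ± 0.06 (adjusted p = 0.000688). Set against RPL22, it stood at 11.4% ± 0.65 in PC9-AMG, 15.1% ± 0.49 in PC9-BrM4 and 10.1% ± 0.90 in PC9. RPL7L1, a nucleolar paralog of RPL7, had 124 and 114 TPM in PC9-AMG, 107 and 121 TPM in PC9-BrM4, and 91.9 and 84.2 TPM in PC9. It was higher than in PC9 by 0.43 ± 0.07 (adjusted p = 0.00204) in PC9-AMG and 0.37 ± 0.07 (adjusted p = 0.00551) in PC9-BrM4. RPL26L1 had 119 and 124 TPM in PC9-AMG, 114 and 104 TPM in PC9-BrM4, and 104 and 111 TPM in PC9, and its call in PC9-AMG against PC9, 0.17 ± 0.06 (adjusted p = 0.0425), was lost without any 1 of the 4 libraries (0.13 to 0.22, adjusted p from 0.0533 to 0.228).

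FAU and RACK1 are subunits of the ribosome that the name rule did not take. FAU, a fusion with the 40S protein S30, had 1085 and 1144 TPM in PC9-AMG, 1108 and 1028 TPM in PC9-BrM4, and 1046 and 1105 TPM in PC9, and passed in no comparison. RACK1, a 40S scaffold listed under its older symbol GNB2L1, had 2756 and 2887 TPM in PC9-AMG, 3079.8 and 2934 TPM in PC9-BrM4, and 2557 and 2649 TPM in PC9. It was higher in PC9-BrM4 than in PC9 by 0.21 ± 0.05 (adjusted p = 0.00814), which was 0.18 (adjusted p = 0.0614) without PC9 replicate 1.

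Under all 15 alternatives for its comparison, 11 members were called lower in PC9-AMG against PC9, among them RPL10, RPL22, RPL23, RPL27, RPL3, RPS2, RPS20, RPS26, RPS27 and RPSA. In PC9-BrM4 against PC9 there were 9, among them RPL10, RPL13A, RPL22, RPL23, RPL37, RPL41, RPS26 and RPS27. In PC9-AMG against PC9-BrM4 there were 10, among them RPL14, RPL3, RPL36, RPL6, RPLP0, RPS18, RPS2, RPS6 and RPSA. No member was called higher under all 15 alternatives in either comparison with PC9. How many of all tested genes kept a call under all 15 is not given here, so these counts have no background beside them. With quantile normalization the lower calls of RPL11 (0.05), RPL14 (-0.08), RPL41 (-0.15), RPS14 (-0.01) and RPS27A (-0.02) in PC9-AMG against PC9 were lost, as were those of RPL5 (-0.08) and RPS4X (0.02) in PC9-BrM4 against PC9.

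Genes near a member on the chromosome differed in the same direction as many of the members. For each member, the median fold change of the other tested genes within 5 Mb was set beside its own. Over the 81 members on 21 chromosomes, the 2 values correlated with r = 0.71 (rho = 0.63) in PC9-AMG against PC9, r = 0.68 (rho = 0.48) in PC9-BrM4 against PC9 and r = 0.74 (rho = 0.56) in PC9-AMG against PC9-BrM4. Members that lie together share neighbours and all share the libraries, so this is a description. The clearest stretch was the long arm of chromosome 19, taken as the part after 26 Mb and chosen after the values were seen. Its 8 members include RPL13A, RPL18, RPL28, RPS16, RPS19 and RPS9. In PC9-AMG against PC9-BrM4, 7 of the 8 were higher and none lower, with a median of 0.36, and the 553 other tested genes there had a median of 0.43, with 71.6% of them called higher and 3.07% lower. In PC9-AMG against PC9, 3 of the 8 were higher and 1 lower, with a median of 0.09 beside 0.39 for the other genes there, of which 65.6% were higher and 4.52% lower. In PC9-BrM4 against PC9, none was higher and 6 were lower, with a median of -0.23 beside -0.06 for the other genes there, of which 16.3% were higher and 24.4% lower.

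**Figure D4:**
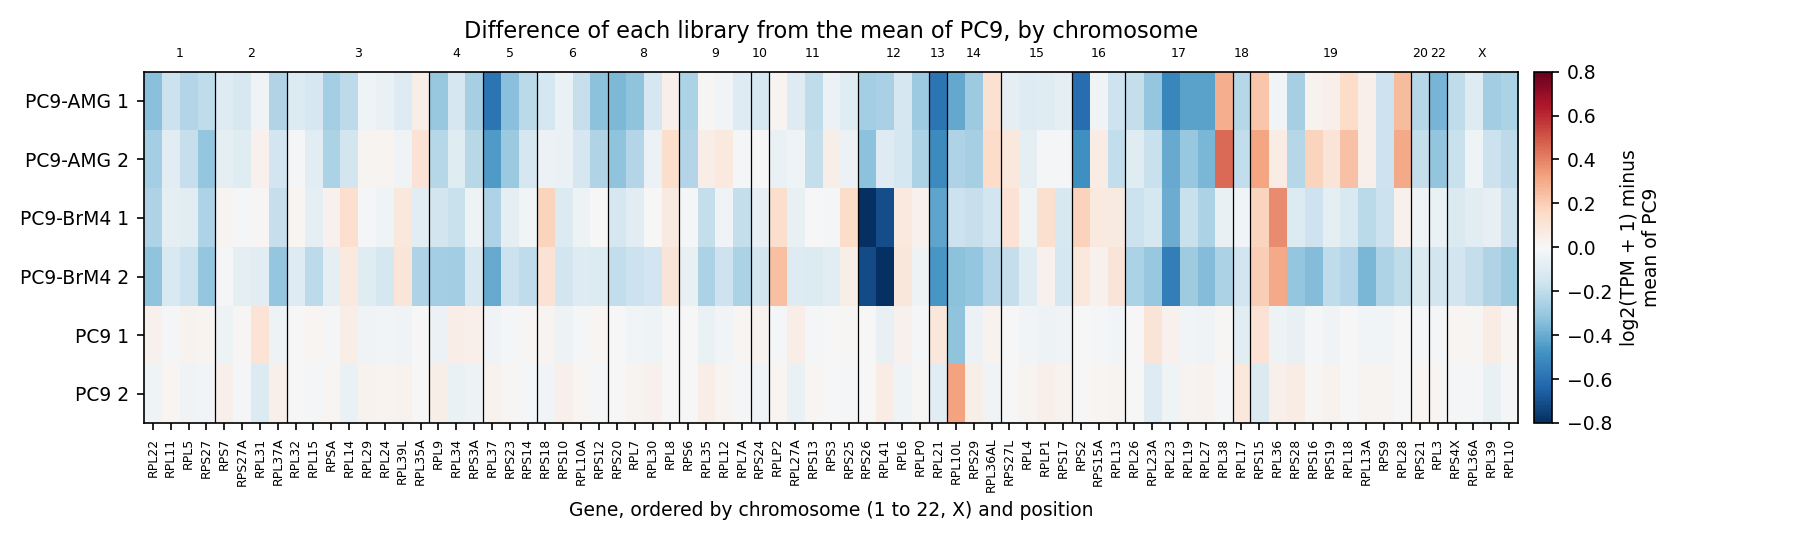
Difference of each library from the mean of PC9 in log2(TPM + 1), for the members reported here, ordered by chromosome and position, with red above and blue below PC9. RPS26 and RPL41 on chromosome 12 are the darkest blue in both PC9-BrM4 libraries, and most members late on chromosome 19 are redder in PC9-AMG than in PC9-BrM4.

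The members with the largest differences mostly had neighbours that differed alike. In PC9-BrM4 against PC9, the neighbours of RPS26 and of RPL41 had a median of -0.50, and those of RPL23 -0.21. In PC9-AMG against PC9, the neighbours of RPL37 had a median of -0.58, those of RPL38 0.46 and those of RPL28 0.48. The neighbours of RPS2 had -0.07 there, beside -0.55 ± 0.05 (adjusted p = 0.000154) for the gene itself. In PC9-AMG against PC9-BrM4 they had -0.35, and with that taken off RPS2 was at -0.32 (adjusted p = 0.0227). RPL10 and RPL22 were lower in both sublines while their neighbours were not: in PC9-AMG against PC9 these medians were 0.09 and 0.12, and in PC9-BrM4 against PC9 0.13 and 0.15. Once the median of the neighbours was taken off in each library, 1 member was called higher and 31 lower in PC9-AMG against PC9. The calls were then 1 higher and 17 lower in PC9-BrM4 against PC9, and 4 higher and 13 lower in PC9-AMG against PC9-BrM4. The shares of all tested genes called on this scale are not given here, so these counts have no background beside them. Among the members that rose in PC9-AMG against PC9, the values on that scale were -0.07 for RPL38, -0.20 for RPL28 and -0.05 for RPS15. RPL36AL, whose neighbours had a median of -0.24 in this comparison, was still higher, at 0.37 (adjusted p = 0.00343). RPL37 had 0.11 and RPS6 0.0017 there, so neither was lower than its surroundings. RPL5 and RPS4X, at -0.04 each, no longer passed, nor did RPL39 at -0.10 and RPS27A at -0.03. RPS14, at -0.25 (adjusted p = 0.0508), RPL14, at -0.17 (adjusted p = 0.0802), and RPL41, at -0.15 (adjusted p = 0.161), also missed the threshold, beside -0.18 for each without this step. In PC9-BrM4 against PC9, RPS26 and RPL41 still passed, at -0.27 (adjusted p = 0.00264) and -0.26 (adjusted p = 0.0329), while RPL36 at 0.18, RPL36AL at -0.10, RPLP2 at 0.09 and RPS18 at 0.02 did not. Between the sublines, RPL38 had 0.12, RPL41 0.12, RPLP2 -0.06 and RPS26 -0.0027, and none of these 4 passed. RPL37, at 0.42 (adjusted p = 0.00932), and RPS19, at -0.24 (adjusted p = 0.0390), passed there with the sign opposite to their calls without this step.

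**Figure D5:**
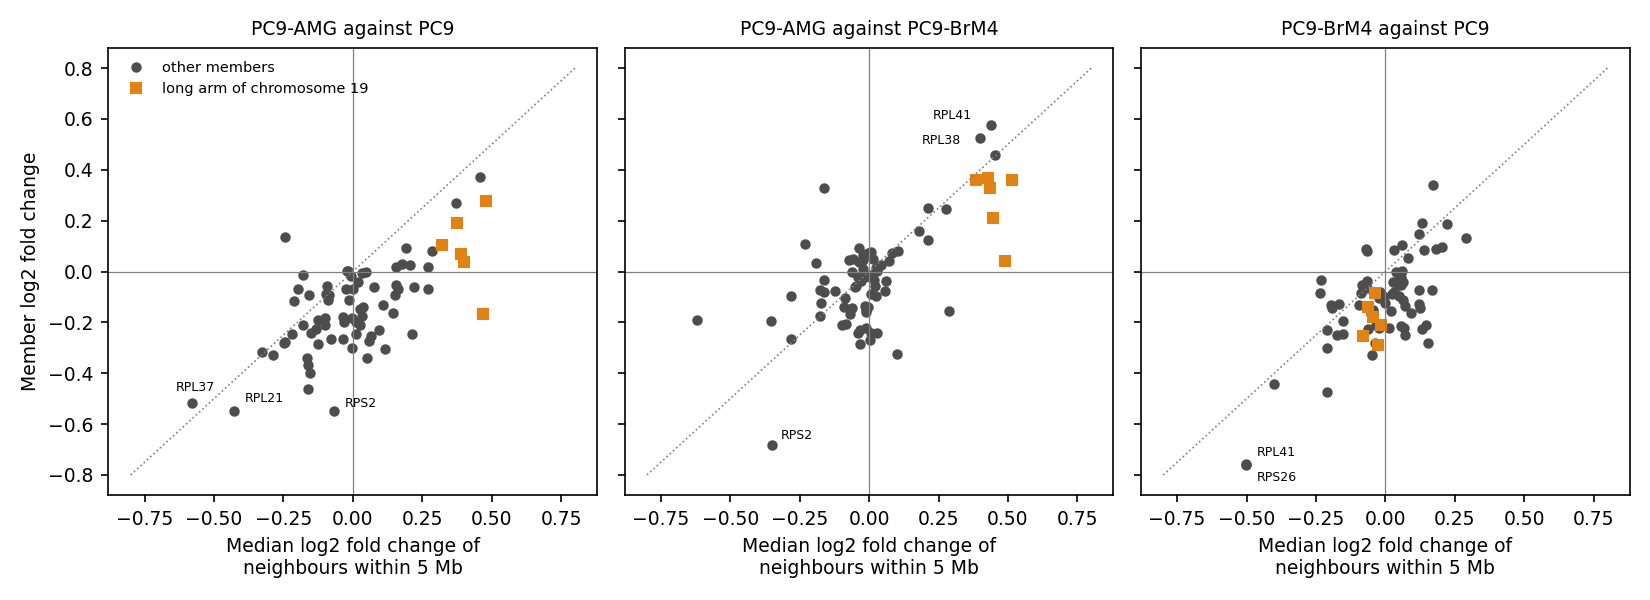
Log2 fold change of each member reported here (vertical axis) against the median log2 fold change of the other tested genes within 5 Mb of it (horizontal axis), with the dotted line where both are equal. Orange squares are members on the long arm of chromosome 19, which sit to the right of 0 in PC9-AMG against PC9 and PC9-AMG against PC9-BrM4.

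Near-identical copies make some levels uncertain, since reads of a gene and of its processed pseudogenes can be split in counting. The files listed 31 pseudogenes of 19 members, of which 26 had a mean of at least 1 TPM and 4 of at least 100 TPM. In all, their TPM came to 1.52% ± 0.01 of the members' TPM in PC9-AMG, 1.49% ± 0.05 in PC9-BrM4 and 1.57% ± 0.06 in PC9 (SD, n = 2 each). The pseudogene locus listed under RPL21 itself is not in this share, and its TPM is counted with the members. RPL13AP5 alone had 899 and 952 TPM in PC9-AMG, 857 and 761 TPM in PC9-BrM4, and 894 and 899 TPM in PC9, beside 1471 and 1473 TPM in PC9-AMG, 1233 and 1114 TPM in PC9-BrM4, and 1411 and 1456 TPM in PC9 for RPL13A itself. RPSAP58 had 409.6 and 435 TPM in PC9-AMG, 523 and 483 TPM in PC9-BrM4, and 513 and 506 TPM in PC9. Of the 26 pseudogenes at 1 TPM or more, 21 were higher in PC9 replicate 2 than in PC9 replicate 1, and RPS14P3 had 19.2 TPM in replicate 2 and 6.72 TPM in replicate 1. The part of this in the members' values was not tested. RPS26P11 stood at 23.9% to 31.3% of RPS26 over the 6 libraries. RPL21, a 60S protein gene, was listed at 2 loci, and its total was 427 and 449.9 TPM in PC9-AMG, 478 and 463 TPM in PC9-BrM4, and 681 and 602 TPM in PC9. The total was lower than in PC9, at -0.55 ± 0.06 (adjusted p = 0.000290) in PC9-AMG and -0.44 ± 0.06 (adjusted p = 0.00100) in PC9-BrM4. On chromosome 13, from 27251555 to 27256565 on the plus strand (hg38), where the protein-coding gene lies, RPL21 had 176 and 201 TPM in PC9-AMG, 203 and 206 TPM in PC9-BrM4, and 319 and 258 TPM in PC9. On chromosome 10, from 120354661 to 120355223 on the minus strand, where GENCODE has the processed pseudogene RPL21P16, it had 251 and 249 TPM in PC9-AMG, 275 and 258 TPM in PC9-BrM4, and 362 and 344 TPM in PC9. At both loci all 4 subline libraries lay below PC9. Beside these loci, RPL21P28 and RPL21P44, listed under their own symbols, together stood at 20.4% to 23.1% of the RPL21 total over the 6 libraries. The neighbours set beside RPL21 were those on chromosome 13 only. Their median was -0.43 in PC9-AMG against PC9 and -0.40 in PC9-BrM4 against PC9. With the neighbours' median taken off in each library, the total of RPL21 no longer passed. It was then at -0.11 (adjusted p = 0.260) in PC9-AMG and -0.08 (adjusted p = 0.451) in PC9-BrM4. In all, 43 members shared their locus with an overlapping model, mostly a small nucleolar RNA in an intron, and for 12 of them a model on the same strand had at least 1% of the member's TPM.

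Genes of ribosome building were mostly higher in PC9-BrM4 than in PC9. Of 37 genes of rRNA processing and modification, 28 were higher and 2 lower in PC9-BrM4 against PC9, with a median of 0.32, beside 23.4% higher and 23.1% lower over all tested genes and 35.7% higher and 24.9% lower over the abundant other genes. Over the 15 alternatives 24 to 28 were higher and 0 to 2 lower. BOP1, a 60S processing factor, had 94.4 and 98.4 TPM in PC9-AMG, 130.4 and 139 TPM in PC9-BrM4, and 65.3 and 66.1 TPM in PC9, which is 1.02 ± 0.05 (adjusted p = 9.91e-06) in PC9-BrM4 against PC9. Of 35 genes of subunit assembly and export, 25 were higher and 2 lower, with a median of 0.33, and RRS1, which brings the 5S RNA complex into the early 60S particle, was higher by 0.63 ± 0.05 (adjusted p = 9.15e-05). In PC9-AMG against PC9 the rRNA processing genes had 15 higher and 4 lower (median 0.08), and the assembly genes 16 higher and 2 lower (median 0.13), beside 27.8% higher and 27.7% lower over all tested genes. RRP12, a factor of late processing and export, was higher by 0.68 ± 0.05 (adjusted p = 5.84e-05), while FCF1, a nuclease of the early 40S particle, had 75.7 and 71.9 TPM in PC9-AMG, 191 and 186 TPM in PC9-BrM4, and 210.2 and 194 TPM in PC9. FCF1 was lower in PC9-AMG, at -1.44 ± 0.05 (adjusted p = 3.44e-06) against PC9 and -1.34 ± 0.05 (adjusted p = 2.09e-06) against PC9-BrM4, and with the median of its neighbours taken off, at -0.66 and -0.71. Between the sublines, PC9-AMG had 3 rRNA processing genes higher and 24 lower (median -0.23), and 7 assembly genes higher and 16 lower (median -0.15), beside 28.1% higher and 28.0% lower over all tested genes. The difference between these lists and the ribosomal protein genes was not tested.

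For the other lists, the shares of all tested genes are those just given. Of 26 elongation factors and other TOP mRNAs, 5 were higher and 10 lower in PC9-AMG against PC9 (median -0.10), 8 higher and 12 lower in PC9-BrM4 against PC9 (median -0.06), and 10 higher and 9 lower in PC9-AMG against PC9-BrM4 (median -0.0032). EEF1B2, a guanine exchange factor of elongation, had 418 and 456 TPM in PC9-AMG, 637 and 596 TPM in PC9-BrM4, and 599 and 566 TPM in PC9. EEF1B2 was lower in PC9-AMG, at -0.41 ± 0.06 (adjusted p = 0.000744) against PC9 and -0.49 ± 0.06 (adjusted p = 0.000279) against PC9-BrM4. EIF4B, a helper of the initiation helicase, had 201 and 188 TPM in PC9-AMG, 131 and 135 TPM in PC9-BrM4, and 215 and 204 TPM in PC9, and was lower in PC9-BrM4 than in PC9, at -0.66 ± 0.05 (adjusted p = 6.90e-05). EIF4B lies on chromosome 12, and with the median of its neighbours taken off the difference was -0.21 (adjusted p = 0.0168). It was higher in PC9-AMG than in PC9-BrM4 by 0.55 ± 0.05 (adjusted p = 8.56e-05), and by 0.12 (adjusted p = 0.0931) with that median taken off. Rises against PC9 included EEF1D in PC9-BrM4, 0.41 ± 0.08 (adjusted p = 0.00372), and EEF2 in PC9-AMG, 0.29 ± 0.06 (adjusted p = 0.00551). With their neighbours' median taken off, these were 0.24 (adjusted p = 0.106) and -0.0028 (adjusted p = 0.970). A list of 11 noncoding snoRNA hosts was taken as TOP RNAs, and their starts were not checked here. Of these hosts, 6 were higher and 0 lower in PC9-AMG against PC9, and 2 higher and 1 lower in PC9-BrM4 against PC9. In PC9-AMG against PC9-BrM4, 5 hosts were higher and 1 lower. RNA polymerase I, which makes the rRNA, had 2 higher and 3 lower of 15 genes in PC9-AMG against PC9, 5 higher and 2 lower in PC9-BrM4 against PC9, and 1 higher and 6 lower in PC9-AMG against PC9-BrM4. Of 21 tested genes around mTOR, LARP1 and MYC, the regulators of TOP mRNAs and of ribosome production, 8 were higher and 4 lower in PC9-AMG against PC9, 11 higher and 3 lower in PC9-BrM4 against PC9, and 9 higher and 4 lower in PC9-AMG against PC9-BrM4. EIF4EBP1, the translation repressor that mTOR inactivates, had 174 and 164 TPM in PC9-AMG, 129 and 121 TPM in PC9-BrM4, and 94.0 and 95.6 TPM in PC9, which is 0.83 ± 0.05 (adjusted p = 2.17e-05) in PC9-AMG against PC9. Falls in this list included MXI1 in PC9-AMG against PC9, at -0.33 (adjusted p = 0.00504), and LARP4 in PC9-BrM4 against PC9, at -0.57 (adjusted p = 0.00250). With their neighbours' median taken off, these were -0.23 (adjusted p = 0.0229) and -0.13 (adjusted p = 0.341). MLST8, a subunit of the mTOR complexes, had 76.1 and 78.8 TPM in PC9-AMG, 142 and 145 TPM in PC9-BrM4, and 89.2 and 91.7 TPM in PC9, with 0.66 ± 0.04 (adjusted p = 3.77e-05) in PC9-BrM4 against PC9 and -0.89 ± 0.04 (adjusted p = 5.61e-06) in PC9-AMG against PC9-BrM4. With the median of its neighbours taken off, MLST8 was at 0.38 (adjusted p = 0.00128) and -0.52 (adjusted p = 0.000211) in these comparisons.

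Median fold changes of members were -0.10 with a TOP start and -0.19 without one in PC9-AMG against PC9, -0.10 with and -0.13 without in PC9-BrM4 against PC9, and 0.02 with and -0.06 without in PC9-AMG against PC9-BrM4. No test was made of these differences. TPM counts the mRNA in the cell and not its translation, which is the step that the tract is known to control.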

How the data were processed

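RNA was taken with TRIzol from PC9-AMG, PC9-BrM4 and PC9 cells, 2 libraries of each, made with a stranded mRNA kit and read on a NextSeq, per the labels' protocols. Tools named in the submitters' processing notes, with no options, are StringTie 1.3.4d, HISAT2 2.1.0 and bcl2fastq, and the build is hg38. TPM values were made by the authors per gene and library and deposited with FPKM and coverage beside them, per the file headers. FPKM and the deposited coverage served only to estimate aligned bases, as the median over a library's rows of coverage divided by FPKM. A series-wide table holds 6 columns whose names match no sample title and was not used, and groups were taken from the sample records. Rows of a symbol were summed. TPM carries no read counts, so counting error is unknown. Genes with at least 1 TPM in at least 2 of 6 libraries were tested by limma 3.58.1 in R 4.3.3 on log2(TPM + 1), with a trend, all 6 libraries and 3 residual degrees of freedom, adjusted by Benjamini-Hochberg over 14195 genes. The test was tried on simulated data. Genes named in the text were those with the largest changes in each comparison, the 5 highest and 5 lowest members, a fixed set of proteins with known roles, and for other lists the first gene called in a direction. Members and lists were chosen with earlier results of these data known. Alternatives changed the pseudocount, filter, scaling, handling of repeated symbols, trend, block and libraries in the fit. Some genes are not reported here by name, and counts and sums include them.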

Additional observations from a re-analysis of the deposited data

How the results depend on the processing

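Of the results with a main value or count, 125 stayed within the limit used, 1.5 times for a count and the spread between replicates for a median or sum, and 22 moved. Within that limit the members' median still ran from -0.16 to -0.06 in PC9-BrM4 against PC9. For named genes 1126 fits kept the call, 159 lost it and 19 changed sign. Of 54 comparisons in which a named member did not pass, 21 passed under at least 1 alternative, 4 of them with the opposite sign. The 21 include RPLP1 (-0.19) in PC9-AMG against PC9-BrM4 and RPL8 (0.15) in PC9-BrM4 against PC9 with quantile normalization. The members called in PC9-AMG against PC9 were 4 higher and 26 lower with libraries centred on their median, 14 higher with quantile normalization, and 1 higher with the regional median removed, and their median fold change was -0.0713 with quantile normalization and -0.17 with the regional median removed. In PC9-BrM4 against PC9 there were 21 lower with no filter, 16 lower with median centring, 12 higher with quantile normalization, 1 higher and 21 lower without a trend, and 1 higher and 17 lower with the regional median removed. In PC9-AMG against PC9-BrM4 there were 13 lower with median centring, and 4 higher and 13 lower with the regional median removed. The shares of all tested genes called under the alternatives are not given here. Leaving out a library gave 3 to 6 higher and 28 to 35 lower in PC9-AMG against PC9, 2 higher and 18 to 39 lower in PC9-BrM4 against PC9, and 12 to 16 higher and 14 to 23 lower in PC9-AMG against PC9-BrM4, where the median ran from -0.08 to 0.03. With pseudogenes added the members summed to 128843 TPM in PC9. With the regional median removed, signs changed in PC9-AMG against PC9 for RPL28 (-0.20), RPL37 (0.11), RPL38 (-0.0687), RPS15 (-0.0485), RPS6 (0.0017), BRIX1 (0.17), EEF2 (-0.0028) and RPL26L1 (-0.0800). They changed in PC9-BrM4 against PC9 for RPL36A (0.14), RPL5 (0.0117), RPS4X (0.0033) and GNB2L1 (-0.0359), and in PC9-AMG against PC9-BrM4 for RPL28 (-0.16), RPL37 (0.42), RPS19 (-0.24), RPS26 (-0.0027) and GRWD1 (-0.0588). With the changed sign, BRIX1 passed in PC9-AMG against PC9 (adjusted p = 0.0315). RPL37 (adjusted p = 0.00932) and RPS19 (adjusted p = 0.0390) did so in PC9-AMG against PC9-BrM4, and the rest did not pass. Quantile normalization changed the sign of RPL11 in PC9-AMG against PC9 (0.0488) and RPS4X in PC9-BrM4 against PC9 (0.0195). The causes were not tested.

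The labels number replicates alike in each line, but nothing ties same-numbered libraries together, and over 14195 genes the deviations of the numbers correlated at -0.06 between PC9-AMG and PC9-BrM4, -0.03 between PC9-AMG and PC9 and -0.07 between PC9-BrM4 and PC9. A fit with the replicate block called 7 members higher and 35 lower in PC9-AMG against PC9, 2 higher and 25 lower in PC9-BrM4 against PC9, and 15 higher and 18 lower in PC9-AMG against PC9-BrM4. The shares of all tested genes called in that fit are not given here, so these counts have no background beside them. With 2 libraries a line, differences of the size seen between replicates cannot be resolved.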
